A study of Mus musculus with 16 samples.

Results

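Interferon-stimulated genes were followed in the CD8 T cells of mouse kidney allografts and of spleens. The 53 members were named genes that cells switch on after interferon signaling, chosen as a list of names. The 33 genes of the type I type were Isg15, Isg20, Ifit1, Ifit2, Ifit3, Irf7, Irf9, Stat2, Mx1, Oas2, Oas3, Oasl1, Oasl2, Rsad2, Usp18, Zbp1, Bst2, Ifi27l2a, Ifi35, Ifih1, Ddx58, Dhx58, Samhd1, Xaf1, Rtp4, Slfn1, Slfn5, Slfn8, Trim30a, Parp14, Sp100, Herc6 and Cmpk2. The 14 genes of the interferon-gamma type were Irf1, Ifi47, Gbp2 to Gbp9, Igtp, Irgm1, Irgm2 and Iigp1, and the 6 genes of the Ifi200 family were Ifi203, Ifi204, Ifi206, Ifi209, Ifi213 and Mndal. Of the 53 members, 52 were listed in all 9 CD8 matrices, while Mx1 was in none of them. All 52 passed the filter on low counts, among 12247 genes tested of the 32285 listed in any of the matrices. Mean levels in naive spleen ran from 1.68 CPM of Oas2 to 329 CPM of Sp100 for the type I type, from 9.48 CPM of Gbp3 to 127 CPM of Ifi47 for the interferon-gamma type, and from 0.183 CPM of Ifi204 to 304 CPM of Ifi203 for the Ifi200 family. CPM, the unit used throughout, is a gene's molecules in a library scaled to 1000000 molecules in all.

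Type I interferons bind the Ifnar1 and Ifnar2 receptor and act through a complex of transcription factors that binds the interferon-stimulated response element (ISRE). Interferon-gamma, which activated T and NK cells secrete, binds Ifngr1 and Ifngr2 and acts on the gamma-activated site (GAS), and many genes answer to both. Their products block viruses, tag proteins with ISG15, act as GTPases on intracellular microbes and, in the case of Usp18 and Socs1, damp the signal itself. In allografts these genes are commonly read as a mark of interferon acting on graft-infiltrating cells.

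CD45+ cells of male mice were sequenced with a droplet method that tags every mRNA it captures with a unique molecular identifier (UMI), and the authors deposited raw UMI counts of the cells they had called CD8 T cells. Accepted grafts were DBA/2J kidneys in B6 recipients at 1, 3 and 24 weeks, rejecting grafts were B6 kidneys in DBA/2J recipients at 1 week, and the spleens of those recipients and naive spleens served beside them. The labels give strain C57BL/6J and genotype WT for every sample, rejecting recipients included, so the strains above come from the study's methods. Infiltrating cells of rejecting grafts therefore came from another strain than those of accepted grafts, and strain and rejection cannot be told apart in these data. Recipients had lost both of their own kidneys at transplantation, and naive spleens came from mice that were not described further in the labels.

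Cell barcodes carried 32 library tags, which served as replicates: 5 for naive spleen, 3, 5 and 3 for the accepted kidneys at 1, 3 and 24 weeks, the same numbers for their recipients' spleens, 2 for rejecting kidney and 3 for rejecting recipient spleen. For accepted recipients these are the numbers of mice the study gives, but the labels do not say that tags are separate animals, so the tests measure the spread between libraries. Counts were summed per library over the 56585 cells in which Cd8a or Cd8b1 was detected, to totals of 153266 to 22782080 UMIs. These cells were 41.9% to 49.2% of the CD8 matrix cells in 1-week and 43.98% to 51.8% in 3-week spleen libraries. They were 46.2% to 49.2% in those labelled 24-week kidney, 76.6% and 78.1% in rejecting and 83.5% to 90.1% in 1-week kidney. Shares were 94.97% to 97.6% in naive spleen, 96.3% to 97.03% in 3-week kidney, 93.4% to 95.3% in 24-week spleen and 100% in rejecting spleen. What the other cells were was not tested, and fits with all cells were run as an alternative. The smallest library, the second of rejecting spleen, held 56 cells, and 3 UMIs in it equal 19.6 CPM, so a 0 there says little. Among the 496 pairs of libraries, at most 21 cell barcodes were shared. Cd3e, a T cell receptor subunit, was at 252 CPM or more in every library, and Lyz2, of macrophages and monocytes, had a median of 2.0 CPM in naive spleen, 50.5 in 1-week and 56.0 in 3-week accepted kidney and 109 in rejecting kidney. Summed levels of the 6 myeloid markers were 17.0 to 23.0 CPM in naive spleen, 36.5 to 81.7 in 1-week kidney, 54.95 to 129 in 3-week kidney and 192 to 206 in rejecting kidney. The part of such RNA, free or from doublets, in the results below was tested only by leaving out cells that carried it. CPM are relative to all RNA of the cells. As sums over a library, they do not tell fewer expressing cells from less RNA per expressing cell. Shares of single cells were taken only for 8 genes of the type I type and 8 of the interferon-gamma type.

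The 24-week libraries did not follow their labels in kidney parenchyma genes, of which 15 to 19 of 20 had a mean under 1 CPM in each group. Of the 20 genes, 1 was higher in the libraries labelled 24-week kidney and 13 were higher in those labelled 24-week spleen, whereas the kidney libraries were higher for 13 against 4 genes at 1 week, 18 against 2 at 3 weeks and 8 against 3 in rejection. Their summed level was the lower in kidney at 1 week, at 26.4 to 31.1 CPM in kidney and 33.5 to 56.1 CPM in spleen libraries, and was 4.50 to 13.1 CPM in the libraries labelled 24-week kidney and 35.4 to 48.8 CPM in those labelled 24-week spleen. Napsa alone had a mean of 43.9 CPM in 1-week spleen. Left out after its values were seen, the sums of the other genes' means were 1.42 CPM in 1-week and 1.09 CPM in 3-week spleen, 22.2 CPM in 1-week and 19.7 CPM in 3-week kidney, 22.3 CPM in the libraries labelled 24-week spleen and 0.862 CPM in those labelled 24-week kidney. Of the 1-week kidney and 24-week spleen sums, Spp1, which macrophages also make, was 18.5 and 15.9 CPM. Both groups are named below by their labels, and no direction between graft and spleen is drawn from them. The study's own assays of late grafts and spleens were not set beside these levels.

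Promoters of 6 members are shown because the levels below turn on these members. They are 200 bases that end at the base before an annotated start, from RefSeq on build GRCm38.p6, written 5′ to 3′ on the gene's strand. Capitals mark an ISRE core, searched as GAAA, any 2 bases and GAAA, or on the other strand as TTTC, any 2 bases and TTTC, or a GAS core, searched as TTCNNNGAA, which reads alike on both strands. Ifit1, an RNA-binding antiviral protein, lies on the plus strand with its stretch at chr19:34640689-34640888. Isg15, the ubiquitin-like tag, lies on the minus strand at chr4:156200819-156201018, and its 3 matches overlap. Gbp2, a guanylate-binding GTPase, lies on the plus strand at chr3:142620463-142620662. Isg20, an RNA exonuclease, lies on the plus strand at chr7:78913224-78913423 and is the one of these 6 with a GAS core and no ISRE core. Mndal and Ifi213, of the Ifi200 family, lie on the minus strand at chr1:173880188-173880387 and chr1:173599273-173599472. Isg20 has 3 annotated starts in the table and Mndal 2, and the start shown is the one with most ISRE cores, or else the first along the gene.
Ifit1: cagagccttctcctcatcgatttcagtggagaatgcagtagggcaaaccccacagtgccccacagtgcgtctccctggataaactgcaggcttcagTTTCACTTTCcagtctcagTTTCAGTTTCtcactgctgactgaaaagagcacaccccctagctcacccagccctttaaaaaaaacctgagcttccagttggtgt
Isg15: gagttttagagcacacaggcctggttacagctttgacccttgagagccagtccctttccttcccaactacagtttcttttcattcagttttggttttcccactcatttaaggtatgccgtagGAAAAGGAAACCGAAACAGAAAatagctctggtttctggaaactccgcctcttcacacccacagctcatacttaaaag
Gbp2: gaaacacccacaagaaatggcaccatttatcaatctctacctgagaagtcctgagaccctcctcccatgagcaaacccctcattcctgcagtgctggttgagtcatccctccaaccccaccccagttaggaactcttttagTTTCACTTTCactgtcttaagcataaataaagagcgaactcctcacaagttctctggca
Isg20: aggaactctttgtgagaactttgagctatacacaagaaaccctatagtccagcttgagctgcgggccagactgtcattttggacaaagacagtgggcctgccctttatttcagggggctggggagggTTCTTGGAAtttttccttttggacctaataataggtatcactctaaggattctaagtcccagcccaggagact
Mndal: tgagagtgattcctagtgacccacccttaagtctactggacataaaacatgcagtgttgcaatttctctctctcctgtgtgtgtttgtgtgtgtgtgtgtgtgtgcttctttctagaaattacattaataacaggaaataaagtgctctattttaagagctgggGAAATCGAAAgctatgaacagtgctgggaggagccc
Ifi213: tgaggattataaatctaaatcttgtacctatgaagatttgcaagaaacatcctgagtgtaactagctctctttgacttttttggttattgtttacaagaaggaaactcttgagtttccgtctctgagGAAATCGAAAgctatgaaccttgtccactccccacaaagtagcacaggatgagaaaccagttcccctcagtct

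Over the 250 bases before a start, 21 of the 39 members with a promoter in the table (53.8%) held an ISRE core, against 3.46% of 27025 genes. The share was 10 of 25 for type I type members, 7 of 9 for interferon-gamma type members and 4 of 5 for Ifi200 genes. A GAS core was found in 9 of 39 members (23.1%), against 8.13% of all genes, and it was in 5 of the 9 interferon-gamma type members, 4 of the 25 type I type members and none of the 5 Ifi200 genes. A match describes the letters of the window and does not show a bound site.

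Accepted kidneys at 1 week were compared with naive spleen to see how the members stood in CD8 T cells that had entered a graft that would be kept. Most members were lower in the grafts. By edgeR, 40 of 52 members were called lower and 4 higher, with a median log2 difference of -0.86. Lower members were thus 76.9% of those tested, beside 37.0% of all genes, and higher ones 7.69%, beside 32.3% of all genes, for which the median was -0.08. A call is an adjusted p under 0.05. All families shared this: 24 of 32 type I type, 11 of 14 interferon-gamma type and 5 of 6 Ifi200 members were lower. Summed over the family, type I type members had 1790 ± 125 CPM in naive spleen (SD, n = 5) and 1304 ± 234 CPM in 1-week kidney (SD, n = 3), and interferon-gamma type members 664 ± 59.7 and 399 ± 69.9 CPM.

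**Figure D1:**
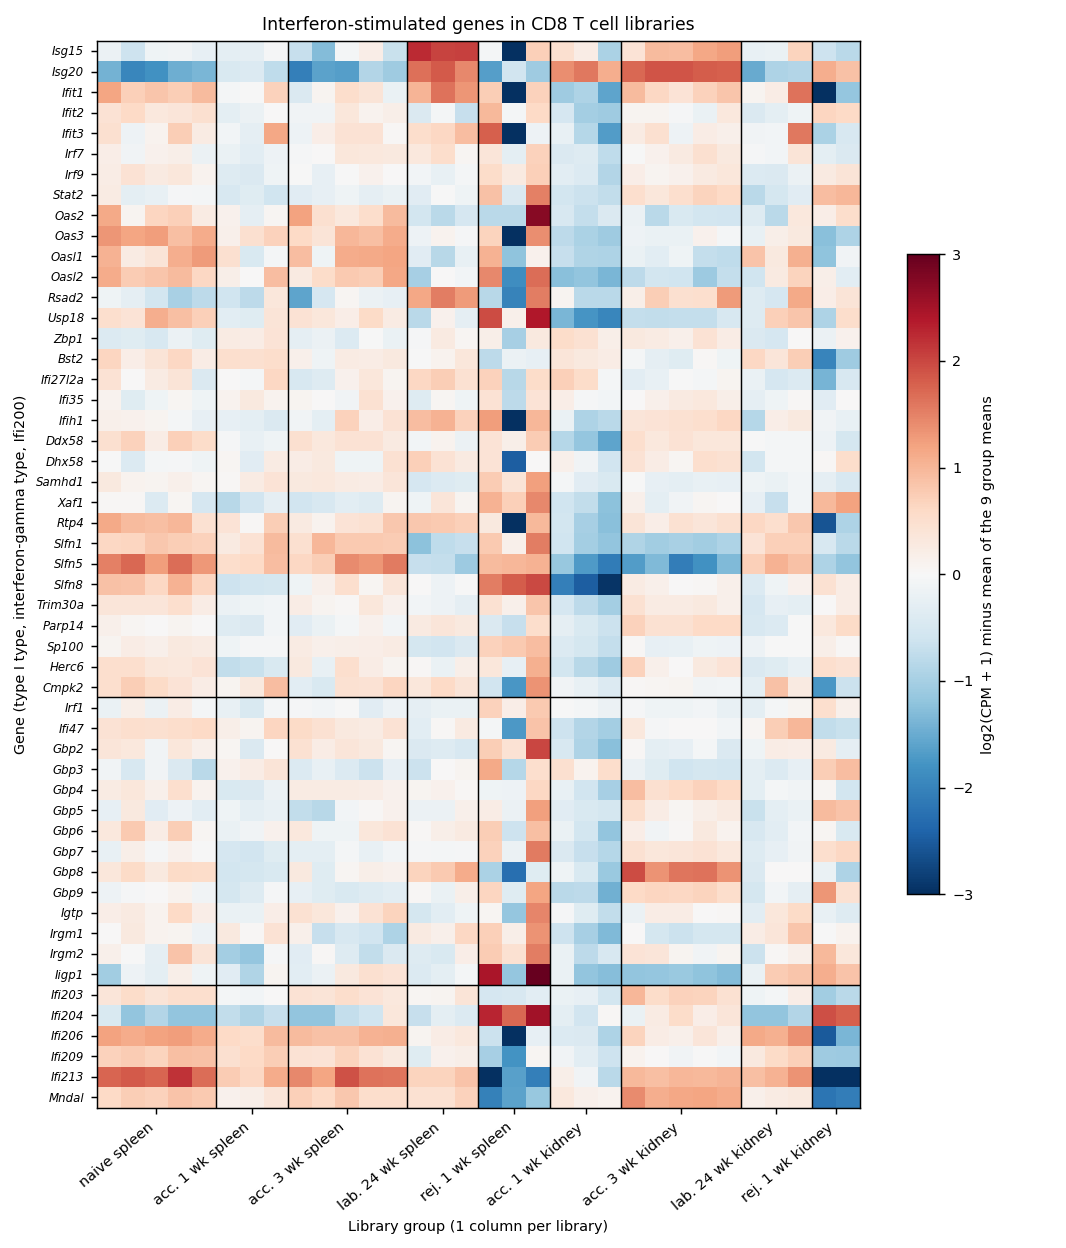
Level of each member in each CD8 library, as log2(CPM + 1) minus the mean of the 9 group means of that gene, with members by family from top to bottom and libraries by group from left to right. The color scale ends at -3 and 3, most members are below their mean in the 3 libraries of 1-week accepted kidney, and Mndal and Ifi213 are lowest in the 5 libraries of rejecting mice.

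Usp18, the protease that removes ISG15 and shuts down type I receptor signaling, was 8.62, 8.07, 13.5, 11.6 and 10.2 CPM in the 5 naive libraries and 1.62, 0.993 and 0.746 CPM in the 3 libraries of 1-week kidney (edgeR log2 -3.27 ± 0.31 SE, adjusted p = 1.5e-11). Slfn5, a Schlafen protein, was 37.6, 43.8, 31.5, 42.3 and 32.6 CPM in naive spleen and 5.19, 3.21 and 2.19 CPM in the kidneys, 11.1-fold lower (edgeR log2 -3.48 ± 0.22 SE, adjusted p = 3.1e-16). Slfn8, of the same family, was 81.4, 81, 67.8, 92.5 and 69.6 CPM and 9.96, 7.1 and 4.87 CPM (edgeR log2 -3.47 ± 0.16 SE, adjusted p = 7.6e-20). For all 3 genes every kidney library was below every naive library. These 3 were named for the size of their difference. The share of all genes whose libraries separate likewise was not computed, here or below. Ifit1 was 17.5, 12.4, 13.5, 12.6 and 14.7 CPM in naive spleen against 2.89, 3.28 and 1.71 CPM in 1-week kidney (edgeR log2 -2.48 ± 0.30 SE, adjusted p = 3.9e-09), again without overlap. Lower by smaller amounts were Ifit3, a partner of Ifit1 (log2 -1.44), Irf7, the factor that amplifies type I interferon production (log2 -0.62), and Stat2 (log2 -0.63).

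Isg20 went the other way. It was 10.6, 6.91, 7.75, 10.1 and 11 CPM in naive spleen and 80.3, 90.8 and 64.3 CPM in 1-week kidney, 8.35-fold higher (edgeR log2 3.06 ± 0.15 SE, adjusted p = 3.7e-19), with the lowest kidney library far above the highest naive one. The other members called higher were Zbp1, a sensor of Z-form nucleic acid (log2 0.78), Gbp3 (log2 0.81) and Ifi204, whose naive level rested on 4 UMIs in all. Isg15 was 24.3, 17.6, 24.8, 25.2 and 23 CPM in naive spleen and 38.3, 32.4 and 13.7 CPM in the kidneys, and the third kidney library lay below all naive libraries while the other two lay above them (edgeR log2 0.26 ± 0.25 SE, adjusted p = 0.37). No difference was called either for Bst2, the tetherin that holds virions on the membrane (adjusted p = 0.30 by edgeR), Rsad2, the antiviral enzyme viperin (adjusted p = 0.95), or Ifi27l2a (adjusted p = 0.21), and Dhx58, Ifi35, Gbp5 and Irf1 were not called.

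Among interferon-gamma type members, Ifi47, an immunity-related GTPase, was 121, 127, 124, 128 and 134 CPM in naive spleen and 57.4, 48.1 and 43.4 CPM in 1-week kidney (edgeR log2 -1.36 ± 0.17 SE, adjusted p = 1.5e-08). Gbp2 was 43.1, 41.8, 30.8, 42.8 and 36.9 CPM against 23.4, 17 and 13.4 CPM (edgeR log2 -1.15 ± 0.18 SE, adjusted p = 4.8e-07). Irgm1, which regulates the other GTPases of its family, was 17.2, 21.3, 18.5, 18.2 and 15.2 CPM against 10.7, 8.02 and 6.28 CPM (edgeR log2 -1.14 ± 0.19 SE, adjusted p = 2.9e-06). None of these 3 overlapped between the groups. Also lower were Gbp4 (log2 -0.86), Igtp (log2 -0.66) and Iigp1 (log2 -0.65, not called with TMM factors, at -0.58, or DESeq2, at -0.53), whereas Irf1, the transcription factor upstream of many of them, had a log2 difference of -0.08 (adjusted p = 0.48 by edgeR). Ifi200 genes code for DNA-binding proteins, and Ifi213, Ifi206 and Ifi209 were lower, with log2 differences of -2.13, -1.82 and -1.13.

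Cells with a UMI of 1 of 5 dividing-cell genes made up 42.9% to 68.6% of cells in 1-week kidney libraries and 5.69% to 9.91% in naive ones. Without those cells, 33 members were called lower and 4 higher, with a median of -0.61. Shares of all genes were taken in the reported fit only, here and below, and no all-gene median was taken for this fit. Counts of members under other settings thus have no background of their own. NK markers summed to 228 to 344 CPM in the kidney and 55.1 to 78.9 CPM in the naive libraries. B cell markers summed to 11.9 to 15.8 CPM and 42.6 to 71.9 CPM. Gzma led the NK sum in the kidney, at a mean of 266 CPM, and Eomes in the naive libraries, at 48.6 CPM. The study stained CD8 T cells for Eomes, so NK sums here and below need not come from NK cells. Without cells that held a UMI of another cell type's markers, 41 members were lower and 4 higher.

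**Figure D2:**
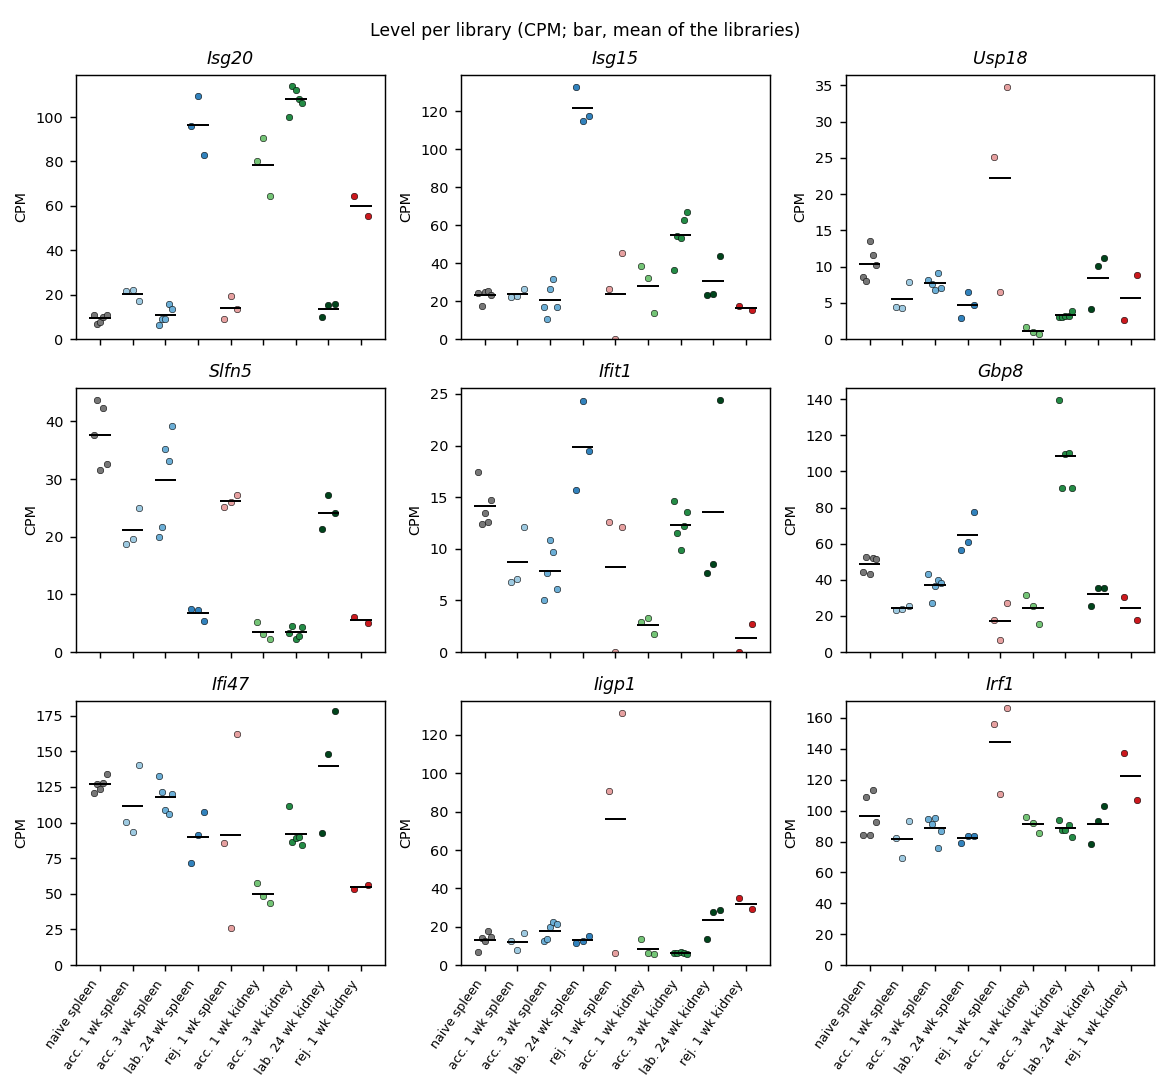
CPM of 9 members in each CD8 library, 1 panel per gene with its own axis from 0, groups on the x axis, points for libraries and bars for group means. Isg20 is high in 1-week, 3-week and rejecting kidney and in the libraries labelled 24-week spleen, where Slfn5 is low, and Ifit1 is lowest in 1-week and rejecting kidney.

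The 3-week and 1-week accepted kidneys were compared to ask how the members stood as acceptance went on. The same 3 libraries of 1-week kidney also served against naive spleen, 1-week spleen and rejecting kidney, so these results are not independent. Of 52 members, 40 were higher at 3 weeks and 3 lower, with a median log2 difference of 0.87. Higher members were 76.9% of those tested, beside 50.1% of all genes, and lower ones 5.77%, beside 20.3% of all genes, for which the median was 0.40. TMM factors, which set the centre of the genes near 0, shifted log2 values by -0.36 and left 31 members higher and 8 lower. Without dividing cells, which were 14.1% to 18.5% of the cells at 3 weeks, 29 were higher and 6 lower, with a median of 0.50. No share or median of all genes was taken in that fit, so whether the members still stood apart there is not known. Leaving out cells with markers of other cells gave 39 higher and 3 lower.

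Slfn8 was 9.96, 7.1 and 4.87 CPM at 1 week and 52.6, 49.5, 44.4, 44.8 and 49.4 CPM at 3 weeks (edgeR log2 2.77 ± 0.16 SE, adjusted p = 1.2e-16). Ifit1 was 2.89, 3.28 and 1.71 CPM at 1 week and 14.7, 11.5, 9.86, 12.2 and 13.5 CPM at 3 weeks (edgeR log2 2.28 ± 0.28 SE, adjusted p = 8.1e-09). Every 3-week library was above every 1-week library for both genes. Ddx58, the viral RNA sensor RIG-I, was 22, 17.6 and 12.8 CPM and then 57.5, 51.1, 55.4, 51.6 and 51.4 CPM (edgeR log2 1.64 ± 0.12 SE, adjusted p = 5.9e-14). Gbp8 was 31.7, 25.4 and 15.7 CPM at 1 week and 139.8, 91.1, 109, 110.4 and 91.1 CPM at 3 weeks (edgeR log2 2.18 ± 0.17 SE, adjusted p = 1.4e-13), and Gbp9 was 23.8, 24.1 and 15.1 and 65.2, 67, 66.2, 67.7 and 61.3 CPM (edgeR log2 1.66 ± 0.15 SE, adjusted p = 5.2e-12). Both Gbp genes were separate between the times. Of the Ifi200 family all 6 were called higher, among them Mndal with 201, 180.1 and 173 CPM at 1 week and 437, 345, 361, 366 and 352 CPM at 3 weeks (edgeR log2 1.01 ± 0.10 SE, adjusted p = 5.4e-11), Ifi213 (log2 1.23) and Ifi203 (log2 1.004). With TMM factors 4 of the 6 were called higher.

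Other members higher at 3 weeks were Stat2 (log2 1.24), Usp18 (log2 1.61), Rsad2 (log2 1.54), Ifit3 (log2 1.298), Gbp4 (log2 1.26), Isg15 (log2 0.99), Ifi47 (log2 0.899), Irf7 (log2 0.81), Gbp2 (log2 0.72), Irgm1 (log2 0.62), Isg20 (log2 0.47) and Igtp (log2 0.44). Of these, Irgm1, Isg20 and Igtp were not called with TMM factors (0.27, 0.10 and 0.09) or DESeq2 (0.26, 0.11 and 0.09), and Gbp2 and Isg15 were not called by DESeq2 (0.36 and 0.62). The 3 lower members were Gbp3 (log2 -0.89), Ifi27l2a (log2 -0.55) and Bst2 (log2 -0.45). Slfn5 was low at both times, at 5.19, 3.21 and 2.19 CPM at 1 week and 3.28, 4.44, 2.23, 2.85 and 4.42 CPM at 3 weeks, and its difference was not called (adjusted p = 0.91 by edgeR). Iigp1 (log2 -0.41, adjusted p = 0.18) and Irf1 (log2 -0.04, adjusted p = 0.72) were not called either.

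Against naive spleen, which it shares as control with the 1-week comparison, the 3-week kidney gave a divided picture. Of 52 members 17 (32.7%) were higher and 22 (42.3%) lower, with a median of -0.15, beside 44.1% of all genes higher and 18.0% lower and a median of 0.25 for all genes. With TMM factors, which shifted this comparison by -0.27, 9 were higher and 29 lower. NK markers summed to 198 to 547 CPM in the kidney and 55.1 to 78.9 CPM in the naive libraries, and myeloid markers to 54.95 to 129 CPM and 17.0 to 23.0 CPM. Gzma led the NK sum in the kidney, at a mean of 254 CPM, and Eomes in the naive libraries, at 48.6 CPM. With cells that held markers of other cells left out, 16 members were higher and 21 lower. Isg20 was 99.9, 114, 112, 108 and 106 CPM at 3 weeks, 11.5-fold above naive spleen (edgeR log2 3.53 ± 0.14 SE, adjusted p = 3.9e-22). Isg15 was 36.5, 54.2, 53.1, 62.7 and 67.1 CPM (edgeR log2 1.24 ± 0.22 SE, adjusted p = 6.4e-06), and all 5 libraries were above the highest naive library. Gbp8 was 44.4, 52.7, 43, 52.3 and 51.4 CPM in naive spleen, below each 3-week kidney library (edgeR log2 1.15 ± 0.14 SE, adjusted p = 6.6e-09), and Gbp9 had a log2 difference of 0.65.

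Slfn5 and Slfn1 stood 10.9-fold and 3.25-fold lower at 3 weeks than in naive spleen, with log2 differences of -3.44 and -1.701. Iigp1, a GTPase that disrupts vacuoles of parasites, was 7.08, 14.1, 12.8, 18 and 14.4 CPM in naive spleen and 6.38, 6.55, 6.7, 6.2 and 5.8 CPM at 3 weeks (edgeR log2 -1.07 ± 0.27 SE, adjusted p = 0.00076), with every kidney library below every naive one. Usp18 was 3.1, 3.06, 3.16, 3.15 and 3.86 CPM at 3 weeks, still below naive spleen (edgeR log2 -1.66 ± 0.24 SE, adjusted p = 1.6e-07). Ifi213, Ifi206 and Ifi209 were lower, with log2 differences of -0.89, -0.87 and -0.799, while Mndal was higher (log2 0.46). Of the anchors of the list, Ifit1, Ifit3, Irf7, Irf1, Ifi27l2a and Igtp were not called, with adjusted p by edgeR of 0.46, 0.72, 0.15, 0.23, 0.19 and 0.23. Rsad2 (log2 1.58), Stat2 (log2 0.61) and Gbp4 (log2 0.395, not called with TMM factors, at 0.12, or DESeq2, at 0.15) were higher, and Bst2 (log2 -0.59), Gbp2 (log2 -0.43), Irgm1 (log2 -0.52) and Ifi47 (log2 -0.46) were lower.

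**Figure D3:**
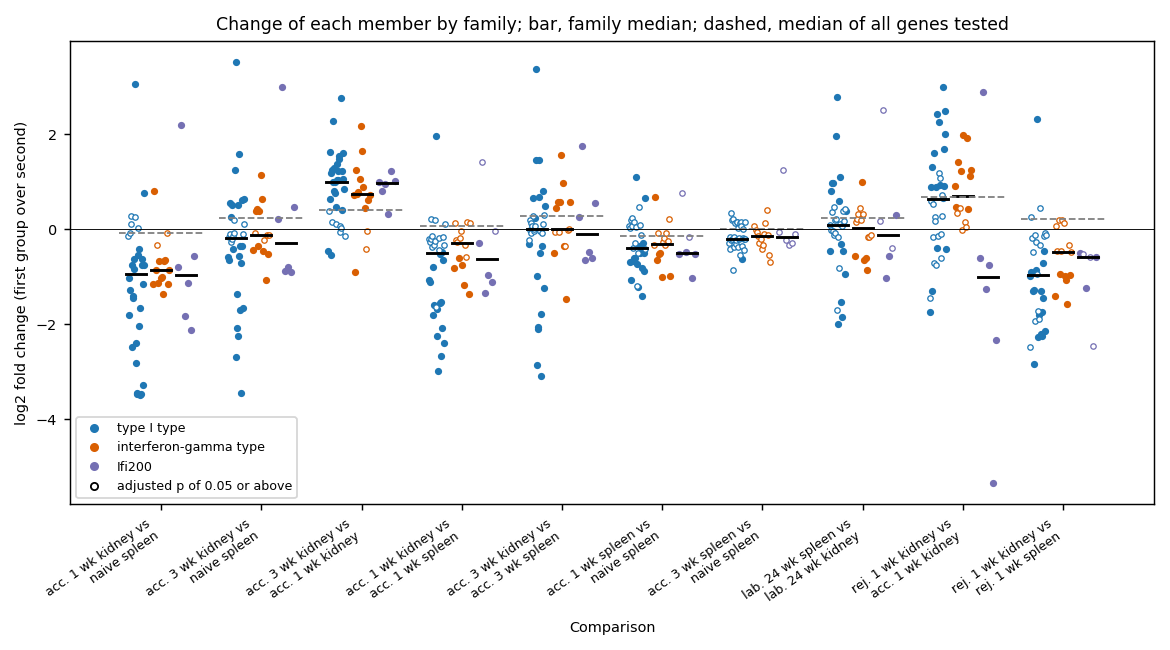
Log2 difference of each tested member in the comparisons of CD8 libraries, with filled points for calls, a bar for each family's median and a dashed line for the median of all genes tested. The point near -5 is Ifi213 in rejecting kidney, a fitted value that rests on 2 UMIs. In 1-week kidney against naive spleen the members have a median of -0.86 beside -0.08 for all genes, and in 3-week against 1-week kidney 0.87 beside 0.40.

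Kidney was then compared with the recipients' own spleens. At 1 week, 25 of 52 members were lower in the kidney and 1, Isg20, was higher, with a median of -0.46, beside 20.3% of all genes lower, 29.2% higher and a median of 0.07. The 6 B cell markers summed to 509 to 1069 CPM in the spleen and 11.9 to 15.8 CPM in the kidney libraries, and the 6 neutrophil markers to 43.4 to 83.7 CPM and 1.38 to 2.37 CPM. Without cells that held markers of other cells, 26 members were lower and 2 higher. Dividing cells were 42.9% to 68.6% of the cells in the kidney and 11.4% to 23.0% in the spleen libraries. Over the alternative fits, including that without dividing cells, 21 to 36 members were called in either direction. Isg20 was 21.5, 22 and 17.3 CPM in the spleens of 1-week recipients, below each kidney library (edgeR log2 1.96 ± 0.16 SE, adjusted p = 6.9e-13). Slfn5 was 18.8, 19.6 and 25 CPM in spleen, above each kidney library (edgeR log2 -2.66 ± 0.24 SE, adjusted p = 1.3e-11). Slfn8 (log2 -2.07), Usp18 (log2 -2.400), Ifit1 (log2 -1.81), Irgm1 (log2 -1.35), Ifi47 (log2 -1.18), Gbp2 (log2 -0.81), Ifi206 (log2 -1.34), Ifi213 (log2 -1.11) and Ifi209 (log2 -0.96) were lower in kidney too.

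At 3 weeks, 17 members were higher in the kidney than in the spleen and 16 lower, with a median of 0.01, where 42.7% of all genes were higher, 16.6% lower and the median was 0.27. With TMM factors, which shifted values by -0.27, 10 were higher and 20 lower. B cell markers summed to 30.5 to 50.4 CPM in the kidney and 146 to 399 CPM in the spleen libraries, neutrophil markers to 0.915 to 2.51 CPM and 7.09 to 62.04 CPM, NK markers to 198 to 547 CPM and 76.1 to 139 CPM, and myeloid markers to 54.95 to 129 CPM and 16.3 to 21.4 CPM. Gzma led the NK sum in the kidney, at a mean of 254 CPM, and Eomes in the spleen, at 51.3 CPM. With cells that held markers of other cells left out, 15 members were higher and 17 lower. Isg20 was 6.45, 9.07, 8.81, 15.8 and 13.7 CPM in 3-week spleen, 10.4-fold below the kidney (edgeR log2 3.38 ± 0.15 SE, adjusted p = 2.7e-20). Gbp8 was 43.1, 27.2, 36.5, 39.7 and 38.3 CPM in spleen (edgeR log2 1.56 ± 0.15 SE, adjusted p = 7.4e-11), and Isg15 was 16.6, 10.5, 26.4, 31.5 and 17 CPM (edgeR log2 1.46 ± 0.24 SE, adjusted p = 3.8e-06). The kidney libraries of all 3 genes were above all spleen libraries. Gbp9 (log2 0.98) and Mndal (log2 0.56) were higher too. Slfn5 (log2 -3.09), Slfn1 (log2 -1.78), Iigp1 (log2 -1.47), Ifi206 (log2 -0.65) and Ifi213 (log2 -0.61) were lower in the kidney.

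The spleens of recipients were compared with naive spleens, the controls used above. At 1 week, 24 members were lower and 3 higher, with a median of -0.37, beside 29.0% of all genes lower, 19.5% higher and a median of -0.13. TMM factors shifted values by 0.18 and left 17 lower and 5 higher. Isg20 was 2.14-fold higher in these spleens (adjusted p = 5.0e-06 by edgeR). Slfn8 was 28.3, 29.8 and 30.5 CPM, below all naive libraries (edgeR log2 -1.41 ± 0.15 SE, adjusted p = 1.2e-09), and Gbp8 was 23.5, 23.8 and 25.4 CPM (edgeR log2 -1.001 ± 0.18 SE, adjusted p = 3.0e-05). Herc6, the mouse ligase for ISG15 (log2 -1.06), Irgm2 (log2 -0.98), Ifi213 (log2 -1.01), Ifi203 (log2 -0.51) and Mndal (log2 -0.51) were lower, and Gbp3 was higher (log2 0.67). The summed level of 6 B cell markers was 509 to 1069 CPM in these spleen libraries and 42.6 to 71.9 CPM in naive ones. Its part in these differences was not tested beyond leaving out cells with such a UMI, after which 22 members were lower and 2 higher.

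At 3 weeks the spleens had 1 member called, Slfn8, at 40.4, 49.3, 62.9, 46.3 and 56.7 CPM (edgeR log2 -0.62 ± 0.13 SE, adjusted p = 0.0014), beside 2.69% of all genes lower and 4.21% higher. None was higher by edgeR or DESeq2, while at an unadjusted p under 0.05 edgeR gave 14 lower and none higher, beside 9.35% and 11.2% of all genes. The count rose to 10 in a fit of these groups alone and was 3 by DESeq2.

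The libraries labelled 24-week spleen were set against those labelled 24-week kidney. In this direction 10 members were higher and 13 lower, with a median of 0.10, beside 32.9% of all genes higher, 12.8% lower and a median of 0.23. With TMM factors, which shifted values by -0.27, 5 were higher and 15 lower. The 6 B cell markers summed to 21.5 to 66.5 CPM in the libraries labelled spleen and 111 to 288 CPM in those labelled kidney, and the 6 NK markers to 421 to 657 CPM and 70.4 to 122 CPM. Gzma led the NK sum in the libraries labelled spleen, at a mean of 455 CPM, and Eomes in those labelled kidney, at 37.7 CPM. With cells that held markers of other cells left out, 9 members were higher and 12 lower. Isg20 was 96, 109.5 and 83.1 CPM in the libraries labelled spleen and 9.77, 15.3 and 15.9 CPM in those labelled kidney (edgeR log2 2.79 ± 0.18 SE, adjusted p = 2.1e-15). Isg15 was 133, 115 and 117 CPM and 23.4, 23.8 and 43.8 CPM (edgeR log2 1.97 ± 0.28 SE, adjusted p = 2.9e-07). Gbp8 was 56.2, 61.2 and 77.5 CPM and 25.5, 35.4 and 35.5 CPM (edgeR log2 1.002 ± 0.20 SE, adjusted p = 0.00011). All 3 were separate between the labels. Slfn5 was 7.42, 7.32 and 5.36 CPM in the libraries labelled spleen and 21.3, 27.2 and 24.2 CPM in those labelled kidney (edgeR log2 -1.85 ± 0.27 SE, adjusted p = 5.0e-07). Iigp1 (log2 -0.86), Ifi47 (log2 -0.65), Ifi206 (log2 -1.02) and Ifi209 (log2 -0.55) were lower, and Ifi27l2a (log2 0.99) higher, in the libraries labelled spleen. Mndal was called higher as well (log2 0.31), but not with TMM factors (0.04) or DESeq2 (0.10). Without the first of these spleen libraries, 15 members were called in place of 23.

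Rejecting kidneys were compared with accepted kidneys of the same week. Of 52 members 23 (44.2%) were higher in rejection and 9 (17.3%) lower, with a median of 0.51, beside 53.0% of all genes higher and 13.4% lower and a median of 0.67. The members' shares were thus near those of all genes. The split depended on scaling. With TMM factors, which shifted values by -0.67, 12 were higher and 17 lower and the median was -0.16, and DESeq2 gave 13 higher and 15 lower. By family, 9 of 14 interferon-gamma type members were higher and none lower, 13 of 32 type I type members were higher and 4 lower, and 1 of 6 Ifi200 members was higher and 5 lower. With TMM factors the interferon-gamma type had 4 higher and 2 lower and the type I type 7 higher and 10 lower, while the Ifi200 split was again 1 and 5.

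Slfn8 was 61 and 51.8 CPM in the 2 rejecting kidneys, above each 1-week accepted kidney (edgeR log2 2.99 ± 0.21 SE, adjusted p = 3.4e-15). Xaf1, a pro-apoptotic interferon target, was 20.6, 18.6 and 12.9 CPM in accepted and 63.1 and 73.6 CPM in rejecting kidneys (edgeR log2 2.01 ± 0.20 SE, adjusted p = 7.5e-11). Gbp9 was 108 and 59.1 CPM in rejection (edgeR log2 1.99 ± 0.19 SE, adjusted p = 2.7e-11). For these 3 genes no library overlapped. Iigp1 was 13.7, 6.34 and 5.93 CPM in accepted and 34.9 and 29.1 CPM in rejecting kidneys (edgeR log2 1.92 ± 0.36 SE, adjusted p = 1.4e-05), and Gbp5, which takes part in inflammasome activation, was 11.5, 10.7 and 9.96 and 29.8 and 27.6 CPM (edgeR log2 1.43 ± 0.22 SE, adjusted p = 6.1e-07). Both were again separate. The 6 myeloid markers summed to 36.5 to 81.7 CPM in the accepted and 192 to 206 CPM in the rejecting kidneys. Without cells that held markers of other cells, 25 members were higher and 8 lower, and Iigp1 differed by 2.12 on the log2 scale (adjusted p = 6.27e-06 by edgeR). Stat2 (log2 1.69) and Usp18 (log2 2.49) were higher. Irgm1 (log2 1.12) and Gbp2 (log2 0.92) were called higher too, but not with TMM factors (0.45 and 0.25) or DESeq2 (0.49 and 0.30). Irf1 was called higher (log2 0.42), and its difference turned to -0.25 with TMM factors and -0.20 with DESeq2. In mean, the recipients' spleens differed the same way for the members named as higher. Rejecting and accepted 1-week spleen had 154 and 29.5 CPM of Slfn8, 68.5 and 21.3 of Xaf1 and 65.9 and 34.4 of Gbp9. For Iigp1 these means were 76.2 and 12.3 CPM, for Gbp5 22.3 and 12.8, for Stat2 33.3 and 12.5 and for Usp18 22.2 and 5.51. These spleens were not tested against each other.

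Bst2 was the type I type member that fell furthest among those called, at 85.8, 81.3 and 76.9 CPM in accepted and 15.9 and 31.1 CPM in rejecting kidneys (edgeR log2 -1.74 ± 0.20 SE, adjusted p = 9.4e-10). Ifi27l2a was lower as well (log2 -1.301), and Isg20, at 64.6 and 55.2 CPM, was called lower just under the threshold (edgeR log2 -0.39 ± 0.17 SE, adjusted p = 0.050), with a log2 difference of -1.06 with TMM factors and -1.02 by DESeq2. Ifit1 was 0 and 2.68 CPM and Isg15 17.4 and 15.3 CPM in the rejecting kidneys, and neither was called (adjusted p = 0.43 and 0.097 by edgeR), although Isg15 was called lower with TMM factors (log2 -1.42) and by DESeq2 (log2 -1.39). Nor were Ifit3, Irf7, Rsad2, Gbp4, Igtp and Ifi47, with log2 differences of 0.26, 0.18, 1.09, 0.35, 0.06 and 0.15. Other scaling turned 5 of these 6 around: with TMM factors Ifit3 was -0.40, Irf7 -0.50, Gbp4 -0.32, Igtp -0.61 and Ifi47 -0.52, and by DESeq2 they were -0.44, -0.45, -0.26, -0.56 and -0.48. Dividing cells were 30.1% and 77.9% of the cells in the 2 rejecting libraries, and without them 22 members were higher and 8 lower. Mean Bst2 was 50.8 CPM in rejecting and 93.6 CPM in accepted 1-week spleen, and mean Ifi27l2a 326 and 313 CPM.

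In the Ifi200 family the libraries of rejecting mice stood apart in kidney and spleen alike. Mndal was 246, 269.9, 263, 294 and 279 CPM in naive spleen, 201, 180.1 and 173 CPM in 1-week accepted kidney, 34.9 and 37.6 CPM in rejecting kidney and 39, 52.2 and 72.6 CPM in rejecting recipient spleen. All 5 libraries of rejecting mice, at 72.6 CPM or less, were below the 27 others, at 173 CPM or more (edgeR log2 -2.34 ± 0.15 SE, adjusted p = 1.4e-15 for the kidneys). Ifi213 was 24.9, 20.5 and 12.2 CPM in accepted kidney and 1.03 and 0 CPM in rejecting kidney, where it rested on 2 UMIs against 839. The ratio of rejecting to accepted kidney was 0.0249, with an exact 95% interval of 0.00301 to 0.0903 that covers counting error only. In rejecting spleen Ifi213 was 0, 6.52 and 4.54 CPM, on 4 UMIs, against 38.2, 34.3 and 48.7 CPM in accepted recipient spleen.

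Ifi206 was 25.6, 24.9 and 17.5 CPM in accepted and 5.13 and 12.7 CPM in rejecting kidney (edgeR log2 -1.26 ± 0.28 SE, adjusted p = 0.00020), and Ifi203 (log2 -0.61) and Ifi209 (log2 -0.76) were lower as well. Ifi204 ran the other way, at 7.7 and 6.9 CPM in rejecting kidney and 10.1, 6.52 and 12.1 CPM in rejecting spleen, against 0 to 2.33 CPM in every other CD8 library. Myeloid cells expressed it as well, at 226 and 372 CPM in those of the 2 rejecting kidneys, and the myeloid markers summed to 192 to 206 CPM in rejecting and 36.5 to 81.7 CPM in accepted 1-week kidney, and to 34.0 to 141 CPM in rejecting spleen. Without cells that held markers of other cells, Ifi204 was 8.75 and 5.29 CPM in rejecting kidney and 4.85, 0 and 6.78 CPM in rejecting spleen, on 0 to 13 UMIs a library, and the myeloid markers' part in the remaining difference was not tested. Ifi200 genes lie as near copies of one another in a cluster on chromosome 1 and differ between inbred strains, and reads of DBA/2J cells were mapped to mm10, a B6 genome. Counts may be split among the copies, and the strain of the infiltrating cells differed together with the outcome.

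**Figure D4:**
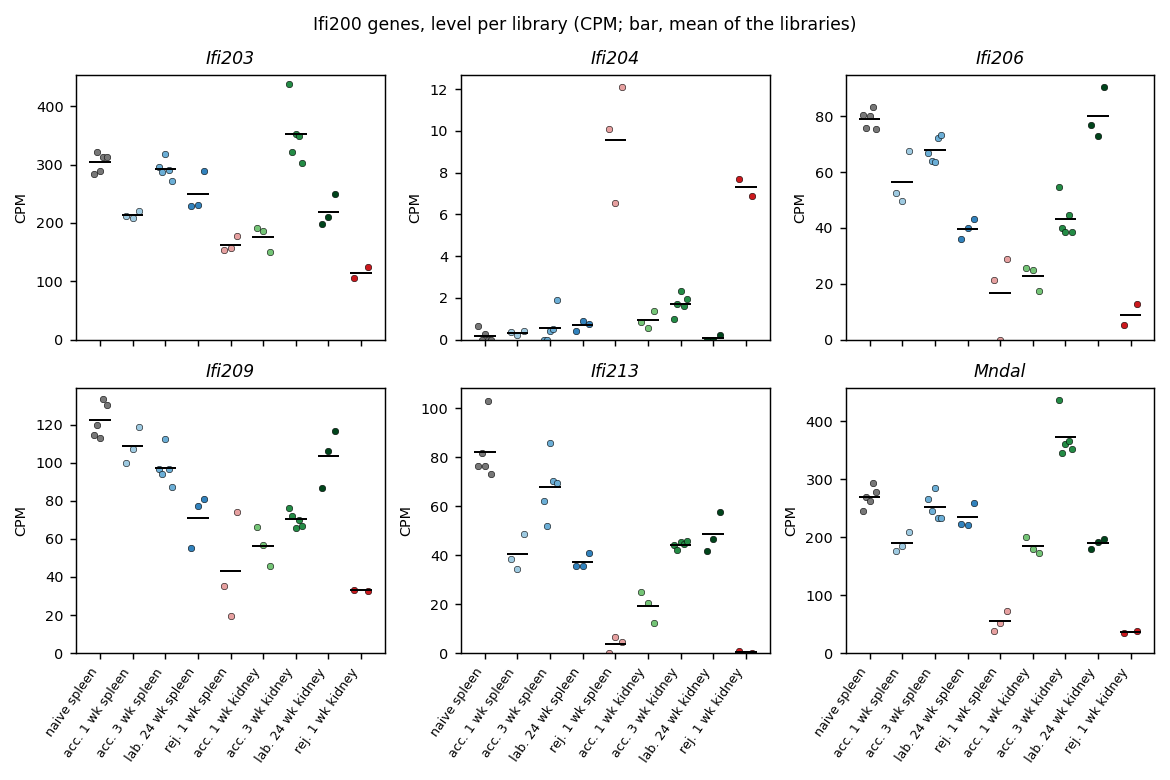
CPM of the 6 Ifi200 genes in each CD8 library, 1 panel per gene with its own axis from 0, points for libraries and bars for group means. The 5 libraries of rejecting mice are lowest for Mndal and Ifi213 and highest for Ifi204, and they overlap with 1-week accepted kidney for Ifi203, Ifi206 and Ifi209.

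Rejecting kidney was compared with rejecting spleen of the same strain of recipient. Here 25 of 52 members were lower in the kidney and 1, Isg20, was higher, with a median of -0.87, beside 9.99% of all genes lower, 21.5% higher and a median of 0.22. Isg20 was 8.81, 19.6 and 13.6 CPM in spleen (edgeR log2 2.33 ± 0.34 SE, adjusted p = 1.7e-06). Iigp1 was 90.6, 6.52 and 132 CPM in spleen, where the smallest library lay below both kidney libraries and the other two far above them (edgeR log2 -1.57 ± 0.39 SE, adjusted p = 0.0019). Gbp2 was 56.6, 45.7 and 138 CPM in spleen, above each kidney library of 40.02 and 27.6 CPM (edgeR log2 -1.405 ± 0.29 SE, adjusted p = 0.00027). The 6.52 CPM of Iigp1 and the 45.7 CPM of Gbp2 came from the library where 3 UMIs equal 19.6 CPM. Its order against the kidney libraries is therefore uncertain for both genes. Oas3, which makes the second messenger of RNase L (log2 -2.26), Slfn5 (log2 -2.24), Usp18 (log2 -2.15), Igtp (log2 -1.07), Ifi206 (log2 -1.24), Mndal (log2 -0.58) and Ifi203 (log2 -0.51) were lower too. The count varied with the libraries and cells used: it was 11 without the third spleen library, 12 without dividing cells and 10 in a fit of these groups alone. The 6 neutrophil markers summed to 30.2 to 1037 CPM in the spleen libraries and 8.44 to 24.1 CPM in the kidneys, and the 6 B cell markers to 150.1 to 582 CPM and 8.05 to 26.2 CPM. With cells that held such markers left out, 18 members were lower and 1 higher.

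Whether the gap between kidney and spleen differed between rejection and acceptance at 1 week was tested as an interaction. It was called for 2 members, both lower, beside 1.67% of all genes lower and 2.88% higher, with a median of -0.21 for members and 0.13 for all genes. Ifi27l2a was 443, 391 and 258 CPM in accepted kidney, 271, 258 and 409.7 CPM in accepted spleen, 101 and 190.2 CPM in rejecting kidney and 436, 150.1 and 393 CPM in rejecting spleen (edgeR log2 -1.51 ± 0.37 SE, adjusted p = 0.013). In rejecting mice kidney was lower than spleen in mean, and in accepted mice it was not. Samhd1, which depletes the nucleotides that viruses need, had mean levels of 139 CPM in accepted kidney, 198 CPM in accepted spleen, 129 CPM in rejecting kidney and 301 CPM in rejecting spleen (edgeR log2 -0.78 ± 0.19 SE, adjusted p = 0.011). Kidney was below spleen in both settings, by more in rejection. The count ran from 0 in a fit of these groups alone to 6 by DESeq2. No member had a higher interaction by edgeR or DESeq2, and 4 were higher and 6 lower at an unadjusted p under 0.05 by edgeR, beside 12.2% and 6.16% of all genes.

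Genes of the pathway itself, from a list of 21, were set beside the members. Of the 18 tested, 10 were higher and 6 lower in 1-week kidney against naive spleen, and 13 higher and 3 lower at 3 weeks, beside the shares of all genes given above. Ifng, the cytokine, was 1.33, 5.19, 2, 2.27 and 3.75 CPM in naive spleen, 179, 184 and 144 CPM in 1-week, 219, 172, 183, 208 and 189.6 CPM in 3-week and 175 and 197 CPM in rejecting kidney. Every library of 1-week, 3-week and rejecting kidney was far above every naive one (edgeR log2 5.91 ± 0.19 SE, adjusted p = 2.2e-24 at 1 week), while no difference was called between accepted and rejecting kidney (adjusted p = 0.43 by edgeR). In the libraries labelled 24-week spleen Ifng was 299, 268 and 304 CPM, and in those labelled 24-week kidney 3.84, 8.24 and 3.08 CPM.

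The chains of the interferon-gamma receptor differed in opposite directions. Ifngr2, the signaling chain, was 17.9, 17.9, 14, 23.3 and 19.5 CPM in naive spleen and 1.62, 0.458 and 1.32 CPM in 1-week kidney (edgeR log2 -3.99 ± 0.29 SE, adjusted p = 1.7e-14), and 0.638, 1.48, 1.12, 1.22 and 1.2 CPM at 3 weeks, without overlap. Ifngr1, the ligand-binding chain, was 139, 121, 127, 102 and 125 CPM in naive spleen and 401, 365 and 359.9 CPM in 1-week kidney (edgeR log2 1.61 ± 0.16 SE, adjusted p = 4.3e-11). Ifnar1 (log2 1.13) and Ifnar2 (log2 0.55) were higher in 1-week kidney. Socs1, the inhibitor of JAK kinases, was 43.2, 38.7 and 41.8 CPM at 1 week, 89.2, 90.6, 95, 97.9 and 93 CPM at 3 weeks and 21.5 and 8.44 CPM in rejection, so that it was higher at 3 weeks (edgeR log2 1.17 ± 0.13 SE, adjusted p = 4.7e-10) and lower in rejection (edgeR log2 -1.52 ± 0.24 SE, adjusted p = 6.5e-07).

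The matrices of all CD45+ cells of naive spleen and of rejecting kidney placed the CD8 T cells among other cells. A cell took a class by its markers, which include no member, and all cells of the matching CD8 matrices were among them. Of 47060 naive cells 5160 were CD8 T, 30612 B, 663 myeloid and 127 plasmacytoid dendritic (pDC), and of 11948 rejecting kidney cells 1935 were CD8 T, 7309 myeloid and 352 NK. The CD8 T class of rejecting kidney held 452 CPM of Lyz2, against 6046 CPM in myeloid cells, and some members were higher in it than in the CD8 matrix of that kidney. Gbp2 was 108 and 125 CPM in the class and 40.02 and 27.6 CPM in the CD8 matrix. The part of myeloid RNA in these levels was not tested, and the cells came from the same libraries, so classes were compared within libraries.

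In naive spleen, 28 of 52 members were higher in myeloid than in CD8 T cells and 11 lower, beside 42.4% and 23.4% of all 10249 genes tested. With TMM factors, which shifted values by -0.29, the counts were 23 and 16. The families differed in their counts: 22 of 32 type I type members were higher and 1 lower, and 4 of 14 interferon-gamma type members were higher and 7 lower. Oasl2, an OAS-like protein (log2 3.51), Oas2 (log2 3.27) and Rsad2 (log2 2.94) led the type I type members. Gbp4 was 7.27, 19.9, 6.51, 15.6 and 18.1 CPM in the myeloid cells of the 5 libraries and 78.7, 84, 72, 92.2 and 72 CPM in their CD8 T cells (edgeR log2 -2.904 ± 0.22 SE, adjusted p = 1.8e-14), so that the myeloid value was the lower in all 5 libraries. Gbp6 (log2 -3.26), Ifi206 (log2 -1.93) and Ifi213 (log2 -1.24) were lower in myeloid cells and Gbp3 was higher (log2 1.81). Ifi204 was 321, 239, 300.3, 309 and 163 CPM in myeloid cells and 3.04, 0.26, 1.27, 0 and 0 CPM in CD8 T cells.

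B cells of naive spleen had 19 members higher and 27 lower than CD8 T cells, beside 48.9% and 19.7% of all genes. With TMM factors the counts were 11 and 31. Of the interferon-gamma type, 10 of 14 were lower, led by Gbp8 (log2 -3.17), Iigp1 (log2 -2.87) and Gbp6 (log2 -2.86). Slfn1 (log2 -4.03) and Oas3 (log2 -1.92) were lower and Oasl1 (log2 1.89), Mndal (log2 0.902) and Ifi209 (log2 0.88) higher in B cells, while Ifi213 was lower (log2 -0.72). In pDCs, which make type I interferon, Bst2 was 3259, 3822, 4132, 3945 and 3445 CPM, Irf7 100.5, 158, 333, 191 and 257 CPM and Trim30a, a ubiquitin ligase, 327, 366, 536, 329 and 359 CPM over the 5 libraries. In CD8 T cells the same genes were 115, 83.5, 90.9, 107 and 80.7 CPM, 30.2, 24.2, 27.5, 27.1 and 22.8 CPM and 106, 107, 99, 109 and 93.9 CPM. No test was fitted for pDCs, as the second library held 18 of them.

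In rejecting kidney the members were much higher in myeloid cells than in CD8 T cells. Of the 45 members tested there, 41 were higher and 2 lower, with a median of 2.05, beside 26.1% of all 7245 genes higher, 33.3% lower and a median of -0.16. All 14 interferon-gamma type members were higher. The filter on low counts did not ask for counts in CD8 T cells, in this matrix or in that of naive spleen. Members low in CD8 T cells could thus enter through a class where they were high, as could any gene. Iigp1 was 1276 and 2183 CPM in the myeloid cells of the 2 libraries and 131 and 176 CPM in their CD8 T cells (edgeR log2 3.47 ± 0.24 SE, adjusted p = 7.7e-11). Gbp2 was 959.99 and 1272 CPM and 108 and 125 CPM (edgeR log2 3.25 ± 0.23 SE, adjusted p = 1.3e-10). Isg15 was 128 and 253 CPM and 24.6 and 31.7 CPM (edgeR log2 2.72 ± 0.23 SE, adjusted p = 2.2e-09). The myeloid value was above the CD8 T value in both libraries for each. Oasl1 (log2 3.51), Oasl2 (log2 3.504), Slfn5 (log2 3.398), Gbp8 (log2 2.96), Ifi204 (log2 3.31) and Ifi209 (log2 1.43) were higher too.

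Isg20 was the reverse in rejecting kidney, at 55 and 51.9 CPM in CD8 T cells and 7.39 and 17.5 CPM in myeloid cells (edgeR log2 -2.12 ± 0.31 SE, adjusted p = 5.3e-06). Sp100, a nuclear body protein, was the other member lower in myeloid cells (log2 -0.54), though not with TMM factors (-0.36). Of the 52 members, 33 had their highest level in the myeloid class of rejecting kidney and 1 in CD8 T cells. The share of all genes with their highest level in each class was not computed. Small classes, such as B cells with 71 cells, were ranked too. NK cells had no member higher and 3 lower than CD8 T cells by edgeR, beside 7.16% and 4.49% of all genes, and at an unadjusted p under 0.05 there were 2 higher and 8 lower, beside 12.3% and 11.4% of all genes. The 3 called were Slfn1 (log2 -2.63), Isg20 (log2 -1.92) and Ifi27l2a (log2 -0.94).

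**Figure D5:**
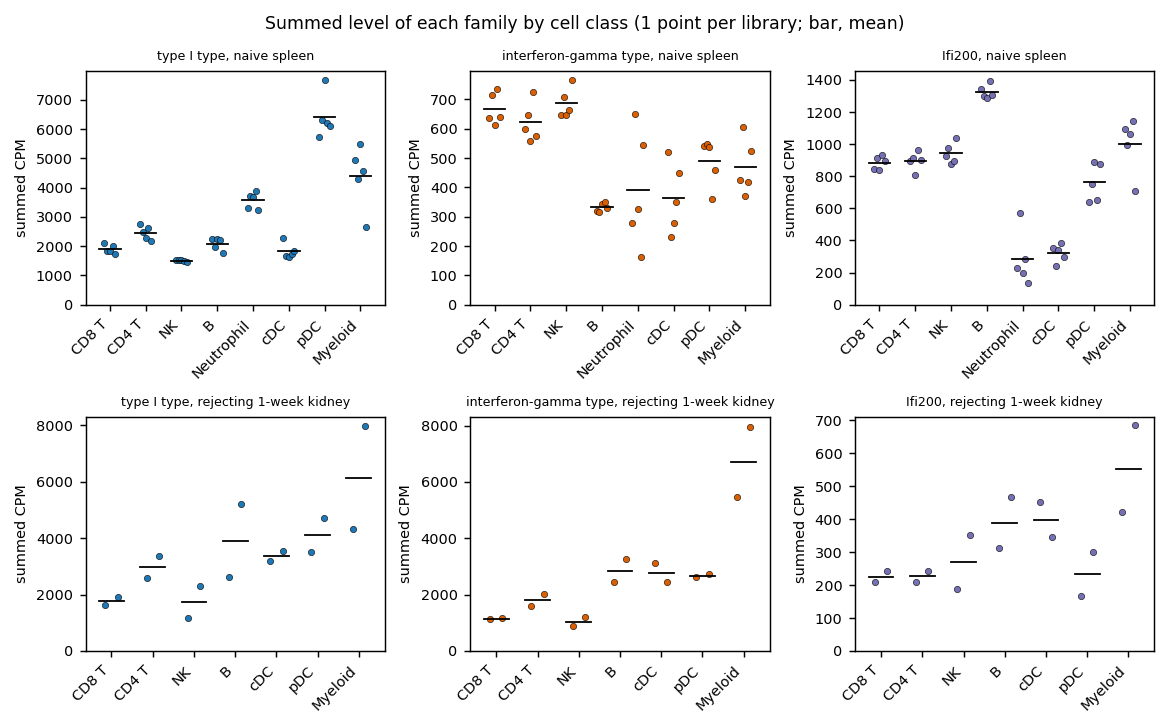
Summed CPM of the members of each family in each cell class of naive spleen and rejecting kidney, with points for libraries and bars for class means, on axes from 0. In rejecting kidney the mean sums of the type I type and the interferon-gamma type are 6153 and 6708 CPM in myeloid cells and 1757 and 1146 CPM in CD8 T cells.

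Shares of single cells with several members depended on depth. After thinning each CD8 cell to 1000 UMIs, which left out 103 cells of 3 groups, the share with at least 2 of 8 type I type genes had a mean of 0.977% in naive spleen, 0.533% in 1-week kidney, 1.26% in 3-week kidney and 0.428% in rejecting kidney. The type I type shares of the 1-week kidneys, at 0.271% to 0.924%, overlapped with naive spleen, at 0.699% to 1.23%, and rejecting kidney, at 0.318% to 0.538%, and the 1-week mean was 0.337% without the first 1-week library. For 8 interferon-gamma type genes the means were 6.42%, 2.40%, 5.68% and 5.29%. Library ranges of the interferon-gamma type shares were 4.52% to 8.11% in naive spleen, 1.596% to 3.77% in 1-week kidney, 5.19% to 6.74% in 3-week kidney and 4.66% to 5.92% in rejecting kidney. For this share and depth each 1-week kidney library was below the libraries of these other groups. At 500 UMIs the first 1-week kidney library, at 1.28%, was above the second rejecting kidney, at 1.21%. Without thinning, the means of that share were 42.2%, 14.9%, 21.4% and 20.9%, and the 1-week kidneys, at 10.3% to 20.01%, overlapped with the 3-week kidneys, at 17.6% to 33.1%, and the rejecting ones, at 15.04% to 26.8%, at median depths that ran from 1764 to 4985 UMIs per cell among these libraries. No class of cells that lacks these genes was there to set a background of free RNA.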

How the data were processed

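Droplet scRNA-seq libraries of CD45+ cells were processed by the authors with Cell Ranger on mm10, per the labels, and deposited as raw UMI counts per gene and cell, in 9 matrices of CD8 T cells and further matrices of all cells, of which those of naive spleen and rejecting kidney were used here. The calling of CD8 T cells and any doublet removal were the authors' own, and no doublet caller was run here. Groups came from the labels and replicates from library tags in the cell barcodes. Counts were summed per library over cells in which Cd8a or Cd8b1 was detected, with totals of 153266 to 22782080 UMIs as scale. Genes in every matrix (16243) were filtered with filterByExpr and fitted in 1 model over all groups by edgeR's quasi-likelihood test (edgeR 4.0.16, limma 3.58.1, R 4.3.3), with p-values adjusted by Benjamini-Hochberg over every gene tested and a threshold of 0.05. The effect of rejection on the gap between kidney and spleen was an interaction in that model. In the all-cell matrices a cell took the class with most of its 6 markers detected, at least 2 and more than any other class, and class sums were fitted with the library as a block. Each SE beside a log2 value is the size of that value divided by the square root of the test's F statistic. It rests on a spread estimated over all groups or classes of the fit, not on the compared ones alone. Intervals and floors of 3 UMIs cover counting error only. Alternatives were TMM factors, DESeq2 1.42.0, other filters, other choices of cells, fits of the compared groups alone and leaving out each library. The fits were tested on simulated data. Promoters came from RefSeq on GRCm38.p6.

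The members, lists and comparisons were chosen with earlier results of these data known. Genes were named by rule. All of 17 set members were named where accepted kidneys were compared with naive spleen, with each other or with rejecting kidneys. In the other comparisons only some of the 17 were named, and those left out there may have been called or not. For each family, up to 3 called members with the largest difference were named, among those with a mean of at least 10 CPM in a group. Where the text singles out another gene, it was chosen after its values were seen. Some genes are not reported here.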

Additional observations from a re-analysis of the deposited data

Results flagged for a closer look

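Among 60 groups of libraries and members or family sums that were large enough to examine, 6 had a highest or lowest library far from the rest, by Dixon's ratio at 95%, where chance gives about 1 in 20, or 3. Isg15 was 17.6 CPM in the second naive spleen library and 23.0 to 25.2 CPM in the other 4. Usp18 was 3.86 CPM in the fifth 3-week kidney library and 3.06 to 3.16 CPM in the others. Gbp4 was 72.3 CPM in the fifth 3-week spleen library and 76.8 to 78.5 CPM in the others. The first 3-week kidney library was the highest for Irgm1, at 17.3 CPM against 10.6 to 11.6 CPM, for Ifi47, at 112 CPM against 84.5 to 89.5 CPM, and for the Ifi200 sum, at 1051 CPM against 808 to 875 CPM. Without that library 38 members were called against naive spleen and 43 against 1-week kidney.

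The gap between kidney and spleen differed between rejecting and accepted mice at 1 week for Ifi27l2a, by -1.51 on the log2 scale, and for Samhd1, by -0.78, in the interaction test by edgeR. The recipients' strains differ in the same way as the outcome and cannot be told apart from it.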

How the results depend on the processing

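Counts of called members stayed within 1.5 times the reported count under every alternative run for 1-week kidney against naive spleen (44, alternatives 37 to 45), 3-week kidney against naive spleen (39, 36 to 40), 3-week against 1-week kidney (43, 35 to 43), kidney against spleen at 1 week (26, 21 to 36) and 3 weeks (33, 29 to 34), 1-week spleen against naive spleen (27, 21 to 32) and rejecting against accepted kidney (32, 24 to 36). For 3-week against naive spleen, 1 member became 10 with all cells of the CD8 matrices, 2 without cells with other markers, 3 without dividing cells, 10 with the compared groups alone, 3 by DESeq2 and 1 to 2 on leaving out a library. For the 24-week labels, 23 became 15 to 19 on leaving out a library, 15 without the first library labelled spleen. For rejecting kidney against spleen, 26 became 12 without dividing cells, 10 with the compared groups alone and 11 to 30 on leaving out a library, 11 without the third spleen library. The interaction count of 2 became 4 with all cells, 0 with the compared groups alone, 6 by DESeq2 and 1 to 3 on leaving out a library, 1 without the first rejecting kidney or first rejecting spleen library. The causes were not tested. All these counts add higher and lower calls, so they do not show a change of direction. With TMM factors, rejecting against accepted kidney went from 23 higher and 9 lower to 12 and 17. The 3-week kidney went from 17 higher and 22 lower to 9 and 29 against naive spleen. Against 3-week spleen it went from 17 and 16 to 10 and 20.

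Without the library block, the class comparisons called 39 members for naive myeloid, 40 for naive B and 37 for rejecting myeloid cells, and 1 in place of 3 for rejecting NK cells. No paired analysis was possible because libraries were numbered by sorting their tags, and the labels tie no kidney library to a spleen library of the same mouse. Of single named members, 3955 of 4379 alternative values kept their direction and side of the threshold, 204 were no longer called and 78 newly called in the same direction, and 137 changed sign while called in neither fit, 16 of them with TMM factors and 14 by DESeq2. Another 5 that were called in either fit reversed: Iigp1 in 1-week against naive spleen with all cells of the CD8 matrices (0.84), and in rejecting against accepted kidney Irf7 (-0.50), Irf1 (-0.25) and Igtp (-0.61) with TMM factors and Irf1 (-0.20) by DESeq2. Leaving out libraries of rejecting kidney could not be fitted for the cell classes, since 1 library would remain, and naive pDCs were not fitted. Shares of cells moved with the settings that set their level: 18 of 18 values moved with at least 1 gene or without thinning, 15 with at least 3 genes and 14 at 500 UMIs. Depth limits the second rejecting spleen library most, where 3 UMIs equal 19.6 CPM.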

Other observations

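Interferon-inducible genes outside the member list, 33 of 34 of them tested, were divided in 1-week accepted kidney against naive spleen, with 13 higher (39.4%) and 12 lower, beside 32.3% and 37.0% of all genes. Ifitm1, a membrane protein that blocks viral entry, was 0.884, 0, 1, 0 and 0.535 CPM in naive spleen and 132, 194 and 147 CPM in 1-week kidney. Ifitm2 was 0.663, 0, 0.25, 0 and 0 CPM and 15.1, 11.2 and 19.4 CPM, and Ifitm3 was 3.32, 0.288, 1.25, 1.45 and 0.535 CPM and 22.6, 21.4 and 37 CPM (edgeR log2 4.21 ± 0.38 SE, adjusted p = 6.0e-12). Every kidney library was above every naive one for these 3 genes. The 6 myeloid markers summed to 36.5 to 81.7 CPM in the kidney and 17.0 to 23.0 CPM in the naive libraries, and their part in this was not tested. Psmb8 and Psmb9, subunits of the immunoproteasome, were higher as well (log2 1.18 and 1.35), as were Ly6a (log2 3.02) and Cd274, which codes for PD-L1 (log2 1.48). Lower were Ifit1bl1 (log2 -3.49), Gbp10 (log2 -2.22), Ifit3b (log2 -1.903), Trim30d (log2 -1.45), Adar, which edits double-stranded RNA (log2 -1.11), and Dtx3l (log2 -1.098).

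In rejecting against accepted 1-week kidney, 16 of the 33 genes were higher (48.5%) and 6 lower (18.2%), beside 53.0% and 13.4% of all genes. Nlrc5, the regulator of MHC class I genes, was 42.4, 42.7 and 31.7 CPM in accepted and 294 and 202 CPM in rejecting kidney (edgeR log2 2.68 ± 0.14 SE, adjusted p = 4.8e-18). Cxcl9, a chemokine that draws T cells, was 6.89, 3.67 and 10.9 CPM and 70.8 and 55.6 CPM (edgeR log2 3.101 ± 0.34 SE, adjusted p = 8.5e-09), beside myeloid marker sums of 36.5 to 81.7 and 192 to 206 CPM, whose part in the result was not tested. Trim30d was lower (log2 -3.395), as was Psmb8 (log2 -0.996). These genes were named after their values were seen.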
